A study of Homo sapiens with 24 samples.

Results

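The question here was which mRNAs of bortezomib-treated HepG2 cells responded to ISRIB in a way that the sum of the separate responses to each compound would not give. It was put as an interaction on the log2 scale: the ISRIB effect in the presence of bortezomib minus the ISRIB effect in its absence. The same number is also the bortezomib effect with ISRIB minus the bortezomib effect without it. It was computed for every gene from 16 of the 24 libraries of the series, and 12685 of the 18915 genes in the count table had enough counts to be tested. A value of 0 is additivity, and a value above 0 means that the mRNA was more abundant under both compounds than the separate effects add up to.

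HepG2 is an established human hepatoma line. The cells received, for 10 h, fresh medium with vehicle (DMSO), 50 nM ISRIB, 50 nM bortezomib, or 50 nM of each, and each of these 4 conditions was sequenced in 4 biological replicates. All groups are cultures of 1 cell line at 1 dose and 1 time, and the labels name no other alteration of the cells. The remaining conditions of the series, nelfinavir with and without bortezomib, entered the model for the estimate of the spread between replicates and the filter on low counts, and are not compared here.

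Bortezomib blocks the proteasome, so that misfolded proteins pile up in the cytosol and in the endoplasmic reticulum (ER). The ER answers through the unfolded protein response (UPR), whose sensors are PERK, IRE1 and ATF6. PERK and related kinases phosphorylate the translation factor eIF2α, which dampens translation in general while the transcription factor ATF4 is translated better, and IRE1 and ATF6 act through the transcription factors XBP1 and cleaved ATF6 on chaperone and degradation genes. Phosphorylated eIF2α works by inhibiting eIF2B, the exchange factor of eIF2. ISRIB activates eIF2B and makes cells insensitive to the phosphorylation, which is why it is used to switch off the integrated stress response (ISR) downstream of the kinases.

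The 16 libraries held between 5154533 and 6943164 counts each. Levels are given as CPM, the counts scaled to library size by TMM factors. The 3′ tag libraries give about 1 read per transcript end, so counts do not grow with transcript length. Mitochondrially encoded genes took 21.5% ± 1.32 of counts in DMSO, 21.9% ± 1.6 in ISRIB, 33.8% ± 1.2 in bortezomib and 36.1% ± 3.13 under both compounds (SD over 4 libraries). The ISRIB effect on this share differed by 2 percentage points between the cells with and without bortezomib. It did not pass a two-sided exact permutation test (p = 0.362 over 4900 arrangements). The test shuffled the ISRIB label within the cells with and within those without bortezomib, so its null is no ISRIB effect in either. The difference was 0.652 points without replicate 4 of bortezomib with ISRIB, whose share was 40.2%, and up to 3.17 points without replicate 3. The hepatocyte products *ALB* and *AFP* were present at 2188 to 3533 CPM and 1217 to 3319 CPM, and none of the 6 leukocyte, fibroblast and endothelial markers looked for had enough counts to be tested. Replicate 3 of bortezomib with ISRIB stood apart for several genes and lists described here.

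ISRIB changed mRNA levels mainly in the cells that also received bortezomib. Against DMSO, ISRIB alone gave 0 of 12685 genes past an adjusted p of 0.05 in edgeR's quasi-likelihood test, with 703 genes at an unadjusted p under 0.05. With no effect at all, a share of about 0.05 of the genes would fall under that unadjusted threshold. The DESeq2 test called 1 gene higher and 20 lower in that comparison. In the presence of bortezomib, ISRIB raised 876 genes and lowered 677, that is 6.91% and 5.34% of those tested and 12.2% together. Bortezomib called 53.4% of genes without ISRIB, with 27.6% higher and 25.8% lower, and 54.7% with ISRIB, with 29.1% higher and 25.6% lower. The difference between these effects, which is the interaction, passed the test for 612 genes, 4.82% of those tested, of which 372 lay above additivity and 240 below it. Scaling by library totals alone gave 563 genes, of which 49.4% lay above additivity in place of 60.8%. With the mitochondrially encoded genes left out of the table, 614 genes passed, 575 of them among the 612. The effects compared in the interaction share no library. Without replicate 3 of bortezomib with ISRIB, 405 genes lay above additivity and 293 below.

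**Figure D1:**
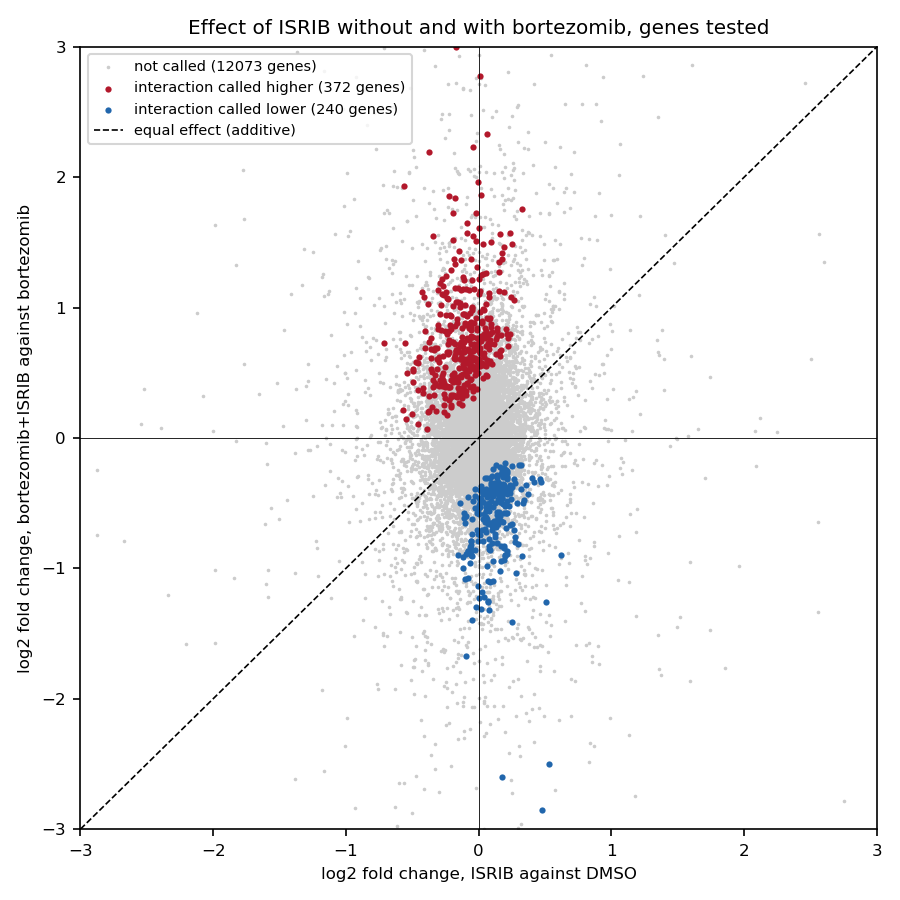
Each point is a gene: the x axis is the log2 fold change of ISRIB against DMSO, the y axis that of bortezomib with ISRIB against bortezomib alone, and the dashed line marks an equal effect. The 372 genes called above additivity (red) and the 240 called below it (blue) spread along the y axis and stay near 0 on the x axis, and 127 genes with larger values, 8 of them called, fall outside the axes, which end at 3.

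Departures were moderate for most genes and large for some. Of the called genes, 119 lay more than 2-fold above additivity and 39 more than 2-fold below it. The median absolute effect of ISRIB over all tested genes was 0.127 on the log2 scale without bortezomib and 0.258 with it. Across genes, which are not independent replicates, these effects had a Pearson r of 0.00876, and r was 0.0102 among the genes above the median expression. The median SE of the ISRIB effect without bortezomib was 0.182, larger than its median absolute size. An r near 0 therefore cannot tell whether the ISRIB effects in the 2 settings are related. The bortezomib effects without and with ISRIB had r = 0.78, and 0.903 among the genes above the median expression.

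The ER chaperones had the highest median interaction of the gene lists examined. Of 16 tested members, 14 lay above additivity and 0 below, beside 2.93% above and 1.89% below over all genes, and the median interaction was 1.29 on the log2 scale against 0.011 for all genes. Bortezomib raised 9 of the 16 and lowered 2 when given without ISRIB, with a median log2 fold change of 0.264. With ISRIB it raised all 16, with a median of 1.52. ISRIB alone raised 0 and lowered 0 of them past the test, with a median log2 fold change of -0.152. The mean log2 level of the list relative to DMSO was -0.182 to -0.148 with ISRIB alone and -0.0345 to 0.0295 in DMSO. That small fall is part of the interaction.

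*HSPA5*, which encodes BiP, the main Hsp70 chaperone of the ER lumen, had the smallest p of all genes in the interaction. It lies at chr9:127997132-128003661 on the minus strand of GRCh37. Its level was 1400, 1455, 1456 and 1526 CPM in the DMSO libraries and 1410, 1370, 1534 and 1369 CPM with ISRIB. It was 2278, 2148, 1905 and 2204 CPM with bortezomib, and 9768, 10210, 11310 and 8802 CPM with both compounds. The lowest of the last group was well over every library of the other 3 conditions, and additivity would have given 2077 CPM. The interaction was 2.27 ± 0.14 (SE) on the log2 scale (adjusted p = 3.29e-13).

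*MANF*, a secreted ER stress factor that holds BiP in its substrate-bound state, stood at 163 to 184 CPM in DMSO, 128 to 178 CPM with ISRIB and 172 to 215 CPM with bortezomib. With both compounds it reached 727, 776, 522 and 737 CPM, clear of all other libraries. Replicate 3 was the lowest of the last group. The interaction was 2.02 ± 0.19 (adjusted p = 8.25e-09), and 2.13 without that replicate.

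*SDF2L1*, a partner of ER Hsp40 proteins, showed 214, 232, 235 and 138 CPM with both compounds and no more than 85.3 CPM elsewhere. Its interaction was 1.85 ± 0.19 (adjusted p = 4.6e-08). *CRELD2*, an ER stress-induced oxidoreductase-like protein, differed in that bortezomib alone lowered it, from 55.3 to 61.2 CPM in DMSO to 26.8 to 36.7 CPM. With both compounds its libraries held 90.6, 88.8, 120 and 97.5 CPM, above all DMSO libraries. The bortezomib effect on *CRELD2* therefore turned from -0.84 without ISRIB to 0.77 with it, and both passed the test.

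The large luminal chaperones followed. *HSP90B1*, which encodes the ER Hsp90 GRP94, stood at 1199 to 1234 CPM in DMSO, 934 to 1085 CPM with ISRIB, 1526 to 1784 CPM with bortezomib and 3241 to 4265 CPM with both, an interaction of 1.49 ± 0.14 (adjusted p = 8.25e-09). The BiP cochaperones *DNAJB11* and *DNAJC3* had interactions of 1.20 ± 0.11 and 1.21 ± 0.13. The protein disulfide isomerases *PDIA4* (1.51), *PDIA3* (1.28), *PDIA6* (0.86) and *P4HB* (0.59) all passed, as did the nucleotide exchange factor *HYOU1* (1.31), the cyclophilin *PPIB* (1.54) and the lectin chaperone *CALR* (0.96). *PPIB* was at 96.2, 98.6, 83.6 and 98 CPM with both compounds, and without replicate 3 its interaction was 1.59. Interactions were thus spread over a wide range within the group.

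The exceptions were *CANX* and *HSPA13*. *CANX*, the membrane-bound counterpart of calreticulin, went from 952 to 1030 CPM in DMSO to 1724 to 1801 CPM with bortezomib, and held 1805 to 2098 CPM with both compounds. Its interaction was 0.16 ± 0.11 (adjusted p = 0.507), so *CANX* rose with bortezomib whether or not ISRIB was there. *HSPA13*, an Hsp70-like protein of the microsomes, had an interaction of 0.65 ± 0.21 (adjusted p = 0.0654). DESeq2 called it (adjusted p = 0.042), and so did edgeR without replicate 2 of ISRIB (0.0484), replicate 1 of bortezomib (0.0286) or replicate 3 of bortezomib with ISRIB (0.0259).

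The ER stress response element, the sequence CCAAT followed by 9 bases of any kind and CCACG, read by the factor NF-Y together with ATF6, is the textbook feature of such promoters. RefSeq promoters, 250 bases before to 50 after the gene start on GRCh38.p14, were at hand for 9812 of the tested genes, and 13 of them (0.132%) held the element on either strand. It was present in 4 of the 306 promoters of genes above additivity (1.31%) and in 1 of the 192 of genes below it (0.521%). Those 5 genes were *HSPA5*, *HSP90B1*, *CALR* and *CRELD2* above and *XBP1* below, and *CANX*, which was not called, held the element too. The 6 promoters are shown because the same element stood before genes whose departures from additivity ran in opposite directions. They lie at chr9:125241294-125241593 (minus strand) for *HSPA5*, chr12:103930160-103930459 (plus strand) for *HSP90B1*, chr19:12938359-12938658 (plus strand) for *CALR*, chr22:49918384-49918683 (plus strand) for *CRELD2*, chr5:179698679-179698978 (plus strand) for *CANX* and chr22:28800520-28800819 (minus strand) for *XBP1*. Each is written 5′ to 3′ along the gene, with the element in capitals, or its reverse complement where it lies on the other strand.
HSPA5: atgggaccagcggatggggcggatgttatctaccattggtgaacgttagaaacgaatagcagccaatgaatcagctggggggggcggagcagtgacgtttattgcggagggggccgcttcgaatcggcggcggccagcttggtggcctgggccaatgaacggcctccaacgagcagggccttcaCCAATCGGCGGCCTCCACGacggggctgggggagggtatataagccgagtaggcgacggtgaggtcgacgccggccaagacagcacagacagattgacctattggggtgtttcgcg
HSP90B1: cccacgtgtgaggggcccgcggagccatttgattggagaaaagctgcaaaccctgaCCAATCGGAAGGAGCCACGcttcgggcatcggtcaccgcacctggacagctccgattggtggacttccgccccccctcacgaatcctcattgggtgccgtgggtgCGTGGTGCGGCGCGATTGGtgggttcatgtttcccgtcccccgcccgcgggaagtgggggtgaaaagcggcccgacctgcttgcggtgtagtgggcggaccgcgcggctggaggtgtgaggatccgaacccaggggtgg
CALR: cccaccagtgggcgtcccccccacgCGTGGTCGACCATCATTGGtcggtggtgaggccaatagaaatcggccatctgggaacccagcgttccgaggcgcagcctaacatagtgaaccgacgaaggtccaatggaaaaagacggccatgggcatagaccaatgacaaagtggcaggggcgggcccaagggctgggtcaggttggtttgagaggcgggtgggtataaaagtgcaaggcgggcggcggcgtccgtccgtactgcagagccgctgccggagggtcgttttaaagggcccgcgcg
CRELD2: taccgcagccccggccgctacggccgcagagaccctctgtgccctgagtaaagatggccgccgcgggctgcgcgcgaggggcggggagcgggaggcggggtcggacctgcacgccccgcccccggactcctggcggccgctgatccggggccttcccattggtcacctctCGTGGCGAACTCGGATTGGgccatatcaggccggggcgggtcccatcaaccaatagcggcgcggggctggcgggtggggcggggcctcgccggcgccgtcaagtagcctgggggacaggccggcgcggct
CANX: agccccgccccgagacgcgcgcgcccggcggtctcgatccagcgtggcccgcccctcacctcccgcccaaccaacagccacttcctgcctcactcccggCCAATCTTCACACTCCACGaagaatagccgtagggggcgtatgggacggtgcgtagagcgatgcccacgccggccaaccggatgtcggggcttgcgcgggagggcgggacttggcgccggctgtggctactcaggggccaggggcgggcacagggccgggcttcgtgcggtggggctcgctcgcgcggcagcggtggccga
XBP1: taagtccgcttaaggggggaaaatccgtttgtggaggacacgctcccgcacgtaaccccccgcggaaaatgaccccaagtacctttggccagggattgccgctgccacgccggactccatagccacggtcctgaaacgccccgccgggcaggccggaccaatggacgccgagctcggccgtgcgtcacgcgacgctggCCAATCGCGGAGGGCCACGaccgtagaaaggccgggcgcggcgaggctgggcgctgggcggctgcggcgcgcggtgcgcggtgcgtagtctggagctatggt

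In these windows the element began 66 bases before the start of *HSPA5* and 52 bases before that of *XBP1*. *HSP90B1* held it at both 194 and 89 bases before the start, and *CANX* at 151, *CRELD2* at 80 and *CALR* at 225. The shorter UPR element TGACGTGG, looked for on both strands, was in 10 of 306 promoters of genes above additivity (3.27%), in 2 of 192 below (1.04%) and in 0.938% of all tested, with *HYOU1* among the first. The C/EBP-ATF composite element TGATGNAA, the site of ATF4 with a C/EBP partner, was in 1.31% above, 2.08% below and 1.69% of all, and the cyclic AMP response element TGACGTCA in 3.27%, 4.17% and 3.35%. These shares are descriptions of a 300-base window and no test was made on them.

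**Figure D2:**
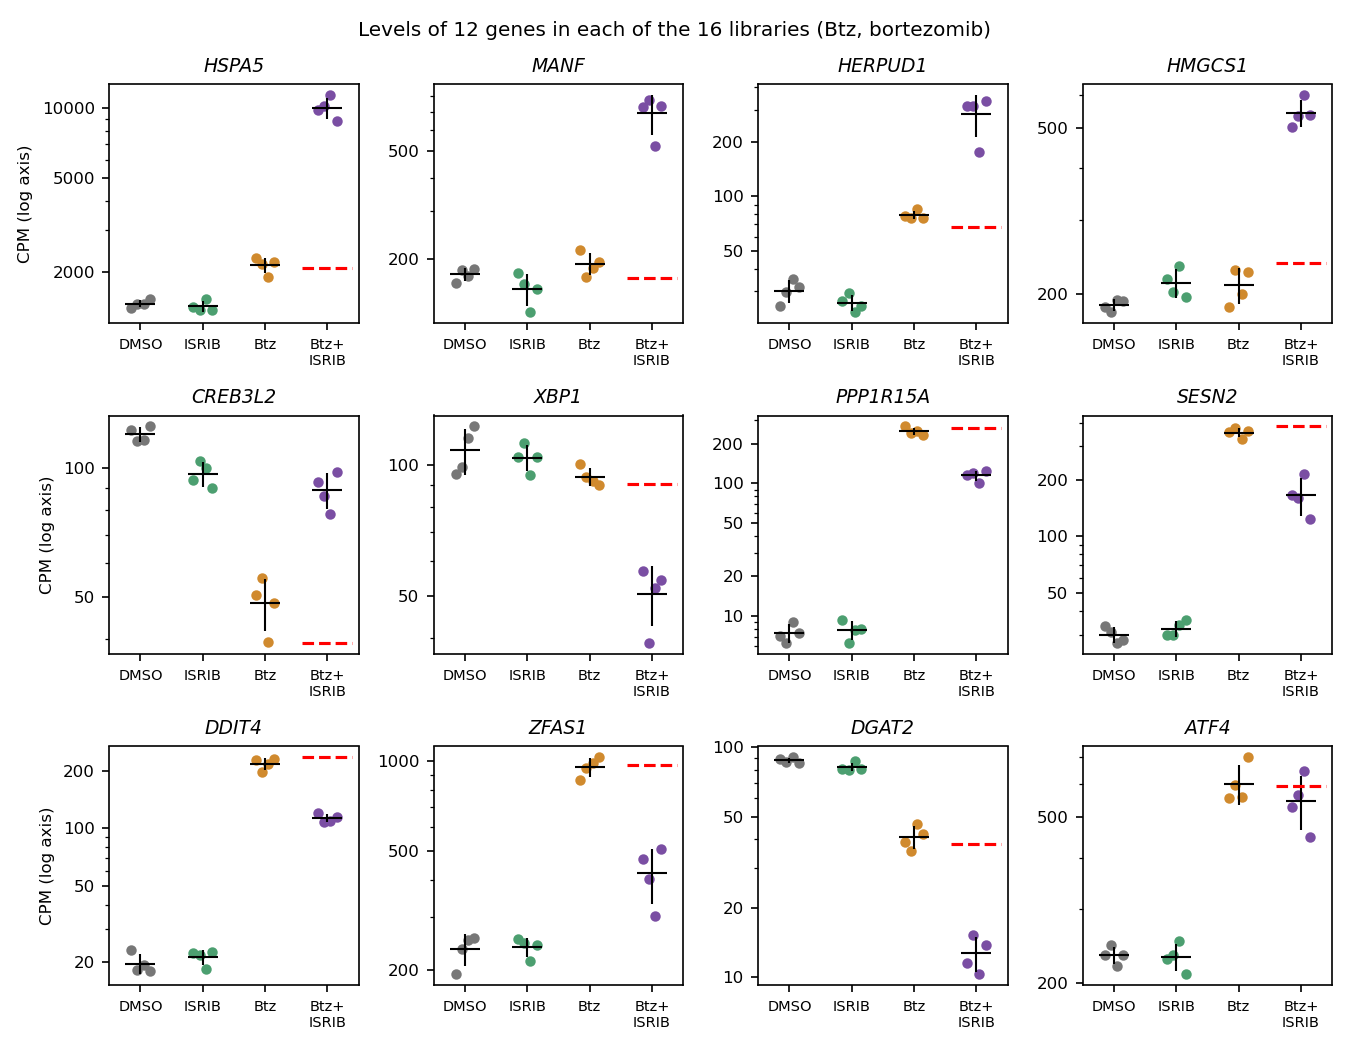
CPM on a log axis for 12 genes in each of the 16 libraries (points), with the mean and SD of the 4 replicates (black) and the level that additivity would give for bortezomib with ISRIB (red dashed line). *HSPA5*, *MANF*, *HERPUD1*, *HMGCS1* and *CREB3L2* lie above the dashed line, *XBP1*, *PPP1R15A*, *SESN2*, *DDIT4*, *ZFAS1* and *DGAT2* below it, and *ATF4* around it.

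Genes of ER-associated degradation and other targets of XBP1 also lay mostly above additivity. Of 19 tested, 12 lay above, beside 2.93% of all genes, and 0 below, with a median interaction of 0.872. The mean log2 level of the list relative to DMSO was 0.249 to 0.351 with bortezomib and 1.04, 1.12, 0.793 and 1.22 with both compounds, with replicate 3 the lowest. *HERPUD1*, which organises the retrotranslocation complex at the ER membrane, was at 24.8 to 34.9 CPM in DMSO, 23 to 29.4 CPM with ISRIB and 76.3 to 84.7 CPM with bortezomib. With both compounds it was at 315, 315, 175 and 336 CPM, with replicate 3 low but still above every other library. Its interaction was 2.08 ± 0.29 (adjusted p = 1.78e-05), and 2.25 without that replicate.

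*SEL1L*, the scaffold of the HRD1 ubiquitin ligase, did not pass with bortezomib alone (70.8 to 84.6 CPM against 67 to 71.9 CPM in DMSO) and reached 170 to 188 CPM with both compounds, an interaction of 1.36 ± 0.12 (adjusted p = 6.55e-09). *SYVN1*, which encodes that ligase, had 0.95 ± 0.19 (adjusted p = 0.00207), and *DERL2*, part of the channel, 0.92 ± 0.17 (adjusted p = 0.000891). *EDEM1*, which marks misfolded glycoproteins for degradation, held 46.8, 34.1, 18.5 and 67.1 CPM with both compounds and at most 14.1 CPM in any other library. Its interaction of 2.50 ± 0.51 was the largest in the list and also among the least precise (adjusted p = 0.00207, and 0.000131 without replicate 3 of bortezomib with ISRIB).

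Some members of the same list did not pass. *DNAJB9*, a classical XBP1 target, held 93.3, 107, 35.4 and 131 CPM with both compounds against 35.9 to 50.4 CPM with bortezomib, and the groups overlapped through replicate 3 alone. Its interaction was 1.12 ± 0.46 (adjusted p = 0.162), and it passed without that library (1.39, adjusted p = 0.0221) and with no filter on low counts. *DERL1* (0.12, adjusted p = 0.833) was already raised by bortezomib alone. *OS9* (0.36, adjusted p = 0.113) was too, and passed only when replicate 4 of bortezomib with ISRIB was left out (0.44, adjusted p = 0.0417).

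The sensors and their factors were split. Of 10 tested, *EIF2AK3* and *CREB3L2* lay above additivity and *XBP1* below, with a median of 0.183. Over all genes 2.93% lay above and 1.89% below. *EIF2AK3*, which encodes PERK, stood at 13.6 to 16.9 CPM in DMSO, 28.9 to 37.4 CPM with bortezomib and 54.8 to 86.1 CPM with both compounds. ISRIB alone gave 11.6 to 13.1 CPM, and the interaction was 1.30 ± 0.21 (adjusted p = 0.000149).

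*CREB3L2*, an ER-anchored transcription factor of the secretory pathway, fell with bortezomib from 116 to 125 CPM to 39.3 to 55.5 CPM. With both compounds it was at 78.1 to 97.8 CPM, close to the 89.6 to 104 CPM with ISRIB alone. The bortezomib effect was thus -1.30 without ISRIB and -0.13 ± 0.10 with it, and the interaction was 1.18 ± 0.15 (adjusted p = 2.07e-06).

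Total *XBP1* mRNA moved the other way from the genes that XBP1 is known to control. Its gene-level count, which does not separate the spliced from the unspliced mRNA, was 95 to 123 CPM in DMSO, 94.6 to 112 CPM with ISRIB and 89.9 to 100 CPM with bortezomib. With both compounds it was 57, 39, 52.2 and 54.3 CPM, below all other libraries. The interaction was -0.84 ± 0.15 (adjusted p = 0.000399). *ATF6* (-0.12, adjusted p = 0.79) and *ERN1*, which encodes IRE1 (-0.28, adjusted p = 0.675), rose with bortezomib and did not pass in the interaction.

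Cholesterol synthesis formed the other large group above additivity. Of 18 tested genes, 13 lay above, beside 2.93% of all genes, and 0 below, with a median of 0.852. *HMGCS1*, an early enzyme of the mevalonate pathway, was at 180 to 193 CPM in DMSO, 196 to 233 CPM with ISRIB and 186 to 228 CPM with bortezomib. With both compounds it reached 503, 535, 600 and 539 CPM. Neither compound alone changed it past the test, and the interaction was 1.20 ± 0.12 (adjusted p = 3.12e-08).

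Later enzymes of the pathway also lay above additivity. Across the 18 tested sterol genes, bortezomib without ISRIB raised 9 and lowered 2, beside 27.6% and 25.8% of all genes. With ISRIB it raised 17 and lowered 1, beside 29.1% and 25.6%. *SQLE*, which makes the sterol precursor epoxide, went from 160 to 189 CPM with bortezomib to 300.2 to 368 CPM with both compounds (interaction 1.02 ± 0.12, adjusted p = 8.22e-07). *FDFT1* (0.78), *MSMO1* (1.06) and *DHCR7* (0.91) also passed. *SREBF2*, the transcription factor of the pathway, had an interaction of 0.07 ± 0.19 (adjusted p = 0.9).

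Regulators and targets of the ISR mostly lay at or below additivity. Of 16 regulators tested, 4 lay below additivity, beside 1.89% of all genes, and *EIF2AK3* above, with a median of -0.296. Bortezomib raised 13 of the 16 without ISRIB and 14 with it, beside 27.6% and 29.1% of all genes. The median log2 fold changes were 1.98 and 1.94.

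*PPP1R15A* encodes GADD34, which brings phosphatase activity to eIF2α and so closes the feedback loop of the pathway. It was at 6.25 to 9.1 CPM in DMSO and 6.3 to 9.33 CPM with ISRIB. With bortezomib it was at 270, 240, 249 and 231 CPM, and with both compounds at 116, 120, 101 and 123 CPM. The groups did not overlap, and the interaction was -1.19 ± 0.20 (adjusted p = 0.000185). Even so, *PPP1R15A* rose by 3.86 on the log2 scale with bortezomib in the presence of ISRIB, against 5.05 in its absence.

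*SESN2* and *DDIT4*, stress-induced inhibitors of mTORC1 signalling, gave the same picture. *SESN2* was at 27.1 to 33.5 CPM in DMSO, 29.6 to 35.8 CPM with ISRIB, 327 to 374 CPM with bortezomib and 166, 160, 215 and 123 CPM with both, an interaction of -1.21 ± 0.19 (adjusted p = 0.000126). *DDIT4* was at 18 to 23.1 CPM, 18.4 to 22.6 CPM, 197 to 230 CPM and 108 to 120 CPM in the same order, an interaction of -1.05 ± 0.13 (adjusted p = 2.07e-06). *TRIB3*, a pseudokinase that restrains ATF4, passed narrowly at -0.49 ± 0.15 (adjusted p = 0.0486). Its call was lost with 13 of the 16 libraries left out in turn, with an adjusted p of up to 0.138, reached without replicate 4 of bortezomib.

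The mRNAs of the ISR transcription factors did not pass. *ATF4* was at 219 to 246 CPM in DMSO, 210 to 252 CPM with ISRIB, 556 to 697 CPM with bortezomib and 449 to 646 CPM with both compounds, and these last groups overlapped. Its interaction was -0.12 ± 0.16 (adjusted p = 0.759). *DDIT3*, which encodes CHOP, was at 69.6 to 74.1 CPM with bortezomib and 58.6 to 78.3 CPM with both (-0.06 ± 0.18, adjusted p = 0.911).

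*ATF3* was a case where the level and the interaction differed. It was at 62.1 to 76.3 CPM with bortezomib and 32.1 to 40.7 CPM with both compounds, which was a called difference. Its levels without bortezomib were 1.12 to 2.09 CPM in DMSO and 0.706 to 1.64 CPM with ISRIB, from 53 and 38 counts in all, and the interaction was -0.52 ± 0.31 (adjusted p = 0.402). *CEBPB*, the partner of ATF4 on composite sites, had -0.47 ± 0.26 (adjusted p = 0.354), with 50.1 CPM in replicate 3 of bortezomib with ISRIB and 82.6 to 88.1 CPM in the others.

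Amino acid genes, the classical targets of ATF4, were divided in the same way. Of 14 synthesis and one-carbon genes, 3 lay below additivity, beside 1.89% of all genes, and 0 above, with a median of -0.244. The 3 were *PSPH* (-0.77 ± 0.14, adjusted p = 0.000644) and *SHMT2* (-0.52 ± 0.13, adjusted p = 0.0109), which make serine and pass its carbon to folate, and the transaminase *GOT1*. *GOT1* (-0.48 ± 0.13, adjusted p = 0.0233) was lost without any of replicates 1 and 3 of DMSO, 4 of ISRIB, 3 and 4 of bortezomib and 1 of bortezomib with ISRIB, with an adjusted p of at most 0.064.

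The most strongly induced members were not among them. *ASNS*, the asparagine synthetase, was at 13.2 to 17.2 CPM in DMSO, 129 to 168 CPM with bortezomib and 119 to 144 CPM with both compounds (-0.34 ± 0.17, adjusted p = 0.282). *MTHFD2*, a mitochondrial folate enzyme, had -0.16 (adjusted p = 0.583), and *CTH*, which makes cysteine, -0.15 (adjusted p = 0.895). Bortezomib raised these 3 mRNAs past the test both without and with ISRIB.

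Of 11 amino acid transporters, only *SLC1A4*, the carrier of alanine and serine, was called, beside 4.82% of all genes. It was at 126 to 175 CPM with bortezomib and 73.1 to 84.4 CPM with both compounds, against 40.9 to 48.4 CPM in the cells without bortezomib (-0.79 ± 0.14, adjusted p = 0.000386). *SLC7A11*, the cystine carrier, was at 412 to 465 CPM with bortezomib and 332 to 390 CPM with both, without overlap, but ISRIB alone stood at 22.6 to 26.1 CPM against 30.8 to 35.8 CPM in DMSO. Its interaction on the log2 scale was therefore 0.22 ± 0.14 (adjusted p = 0.424). On the linear scale it had the opposite sign, with a difference of differences of -53.1 CPM.

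Of 20 cytosolic tRNA synthetases, 3 lay below additivity, beside 1.89% of all genes, and 0 above, with a median of -0.168. They were *FARSB* (-0.72 ± 0.16, adjusted p = 0.00504), *GARS* (-0.36, adjusted p = 0.0398) and *DARS* (-0.35, adjusted p = 0.0484), and the calls of *GARS* and *DARS* were lost with 13 and 14 of the 16 libraries left out in turn, and with no filter on low counts. *DARS* also lost its call with edgeR's robust estimate of the spread, and with the replicate number as a block (adjusted p = 0.0519). *AIMP2*, a scaffold of the multi-synthetase complex, was among the 15 genes of smallest p below additivity. Bortezomib alone left it at 94.1 to 118 CPM against 107 to 119 CPM in DMSO, and with both compounds it was at 58.3 to 70.6 CPM (-0.81 ± 0.13, adjusted p = 0.000164).

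Of 5 secreted stress factors, *STC2* and *INHBE* lay below additivity, beside 1.89% of all genes, and 0 above, while the median of the list was 0.163. *STC2*, a glycoprotein hormone, was at 166 to 207 CPM with bortezomib and 84.9 to 106 CPM with both (-0.89 ± 0.15, adjusted p = 0.000143). *INHBE*, a hepatic activin subunit, was at 115 to 146 CPM and 66.4 to 80.6 CPM (-0.80 ± 0.14, adjusted p = 0.000231). *GDF15*, the most abundant of them, was at 130 to 195 CPM in DMSO and went to 3582 to 4613 CPM with bortezomib and 3929 to 5051 CPM with both. These last groups overlapped and the interaction was 0.30 ± 0.18 (adjusted p = 0.402).

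The study drew a list of 10 apoptosis genes linked to ER stress from these same libraries, so it is no independent evidence of direction. Of the 10, 3 lay below additivity, beside 1.89% of all genes, and 0 above, with a median of -0.445. Besides *PPP1R15A* and *TRIB3*, the third was *BBC3*, which encodes the BH3-only protein PUMA. It was at 16.7 to 21.1 CPM in DMSO, 20.2 to 25.8 CPM with ISRIB, 72.9 to 81.3 CPM with bortezomib and 27.4, 49.6, 57.7 and 42 CPM with both (-1.11 ± 0.24, adjusted p = 0.00419). *PMAIP1*, which encodes NOXA, had -0.76 ± 0.49 (adjusted p = 0.442) at levels of 14.1 CPM or less. *BCL2L11*, which encodes BIM, had 0.58 ± 0.24 (adjusted p = 0.185) and *ITPR1*, an ER calcium channel, -0.42 ± 0.38 (adjusted p = 0.611).

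**Figure D3:**
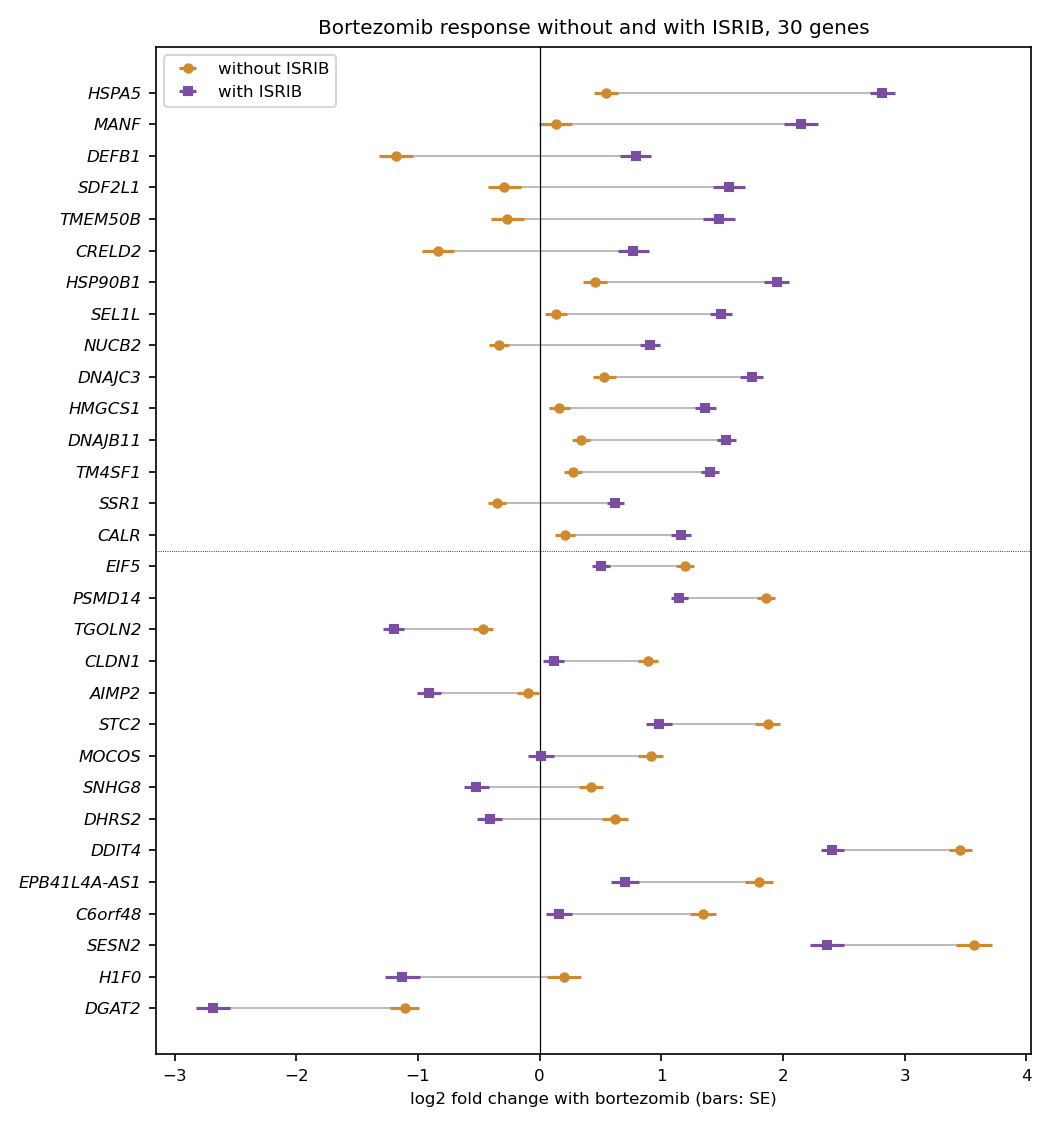
The log2 fold change with bortezomib, without ISRIB (orange circles) and with ISRIB (purple squares), for the 15 genes of smallest p above additivity (over the dotted line) and the 15 below it, with bars for 1 SE. In the upper block the squares lie to the right of the circles and in the lower block to the left, which the choice of genes fixes, while the position of the circles differs from gene to gene: *CRELD2* and *DEFB1* start on the left of 0 and end on its right.

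Bortezomib inhibits the proteasome, and its subunit genes are known to be raised in response. Of 32 subunits, 6 lay below additivity, beside 1.89% of all genes, and 0 above, with a median of -0.29. The count was 10 with DESeq2 and 3 without replicate 3 of ISRIB or replicate 4 of bortezomib. *PSMD14*, the deubiquitinase of the lid, was at 109 to 117 CPM in DMSO, 116 to 135 CPM with ISRIB, 377 to 423 CPM with bortezomib and 265 to 277 CPM with both compounds. The groups with bortezomib did not overlap and the interaction was -0.71 ± 0.10 (adjusted p = 1.71e-05). *PSMB4* (-0.58 ± 0.11, adjusted p = 0.000782) and *PSMD7* (-0.55 ± 0.12, adjusted p = 0.0042) also passed.

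The other called subunits were closer to the threshold. *ADRM1*, the ubiquitin receptor, had -0.48 (adjusted p = 0.0194) and was lost without replicate 3 of ISRIB (0.0566) or replicate 4 of bortezomib (0.059). *PSMB1* (-0.46) and *PSMD8* (-0.42) were lost with 11 and 13 of the 16 libraries left out, and *PSMD8* also with no filter on low counts. *PSMB5*, the catalytic subunit that bortezomib binds, was at 284 to 306 CPM with bortezomib and 262 to 283 CPM with both, and its interaction was -0.30 ± 0.11 (adjusted p = 0.11, and 0.0354 with DESeq2). The mean log2 level of the list, relative to DMSO, was 1.13 to 1.24 in the bortezomib libraries and 0.901 to 1.02 in those with both compounds.

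The cytosolic chaperones are induced by the heat shock response. Bortezomib raised 24 of 24 tested genes without ISRIB and 23 with it, beside 27.6% and 29.1% of all genes. In the interaction 3 lay below additivity, beside 1.89% of all genes, and 0 above, with a median of -0.181. *HSPA1A*, an inducible Hsp70 whose reads may be shared with its near-identical copy *HSPA1B*, went from 69 to 79.4 CPM in DMSO to 3188 to 3445 CPM with bortezomib and 3345 to 5235 CPM with both (0.21 ± 0.17, adjusted p = 0.564). *DNAJB1*, its Hsp40 partner, went from 147 to 154 CPM to 1311 to 1478 CPM and 1184 to 1455 CPM (-0.19 ± 0.12, adjusted p = 0.446). Of the 3 called, *DNAJB6* had -0.51 ± 0.13 (adjusted p = 0.0158). *HSPA4* (-0.38) and *DNAJA1* (-0.37) lost the call with 14 and 12 of the 16 libraries left out, and with no filter on low counts.

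**Figure D4:**
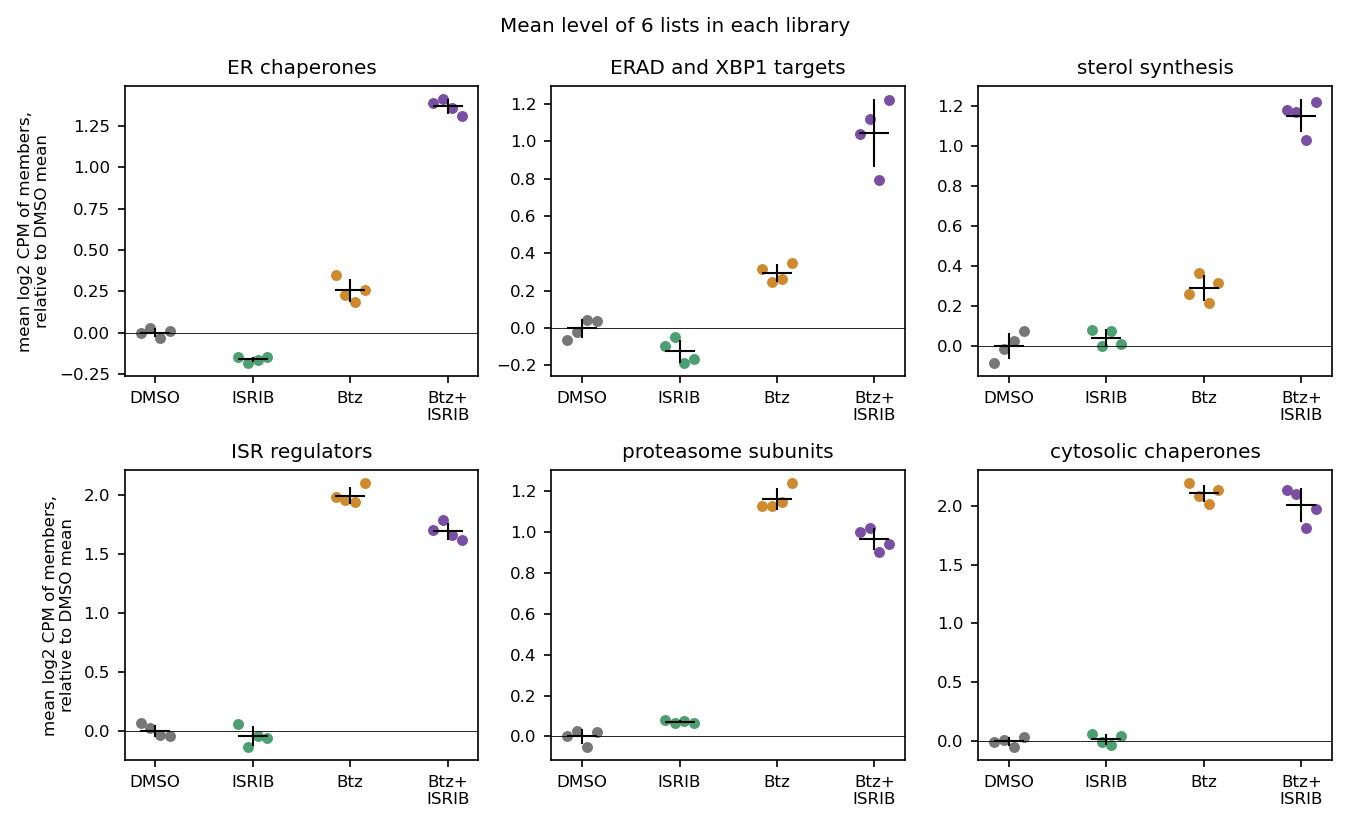
Mean log2 CPM over the members of 6 lists in each of the 16 libraries (points), relative to the DMSO mean, with the mean and SD of 4 replicates (black). ER chaperones reach 1.31 to 1.41 with both compounds against 0.184 to 0.348 with bortezomib, while the cytosolic chaperones reach 1.81 to 2.13 against 2.01 to 2.19.

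In the translation machinery that ISRIB acts on, 1 of 8 subunits of eIF2 and eIF2B was called, beside 4.82% of all genes. *EIF2S2*, the β subunit of eIF2, was at 486 to 542 CPM in DMSO, 881 to 1013 CPM with bortezomib and 619 to 738 CPM with both (-0.46 ± 0.11, adjusted p = 0.013). *EIF5*, which makes eIF2 hydrolyse its GTP at the start codon, was among the 15 of smallest p below additivity. It was at 184 to 197 CPM in DMSO, 390 to 474 CPM with bortezomib and 244 to 291 CPM with both (-0.69 ± 0.11, adjusted p = 7.52e-05).

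Several of the 15 genes of smallest p below additivity belong to none of these groups. *DGAT2*, which joins the last fatty acid to triglycerides in the liver, had the smallest p of that direction. It was at 85.3 to 90.4 CPM in DMSO, 79.6 to 87.3 CPM with ISRIB, 35.5 to 46.3 CPM with bortezomib and 11.6, 15.3, 10.3 and 13.8 CPM with both compounds. ISRIB thus deepened the fall, where additivity would have given 38 CPM, and the interaction was -1.58 ± 0.18 (adjusted p = 6.18e-07).

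The histone gene *H1F0*, which codes for a linker histone of resting cells, was at 69.4 to 103 CPM in the 12 libraries of the other 3 conditions and 32.9 to 46.1 CPM with both (-1.33 ± 0.20, adjusted p = 5.04e-05). *CLDN1*, a tight junction protein, rose with bortezomib to 132 to 136 CPM from 68.7 to 74.3 CPM in DMSO and stood at 68.6 to 78.3 CPM with both, so that the bortezomib effect was 0.89 without ISRIB and 0.12 with it (interaction -0.77 ± 0.12, adjusted p = 5.51e-05). *MOCOS*, the sulfurase of the molybdenum cofactor, had bortezomib effects of 0.91 without ISRIB and 0.01 with it (interaction -0.90 ± 0.15). The reductase gene *DHRS2* (-1.03 ± 0.15) and *TGOLN2* (-0.73 ± 0.12), a protein of the trans-Golgi network, completed this set.

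Above additivity, the genes of smallest p outside the chaperone lists included several of the secretory pathway and the cell surface. *TM4SF1*, a tetraspanin-like surface protein, was at 373 to 406 CPM in DMSO, 411 to 499 CPM with ISRIB, 450 to 525 CPM with bortezomib and 1098 to 1176 CPM with both (1.12 ± 0.11, adjusted p = 8.25e-09). *DEFB1*, a secreted antimicrobial peptide, was at 46.1 to 51.8 CPM, 41.9 to 53.5 CPM, 14.5 to 28.9 CPM and 82.2 to 85 CPM in that order (1.97 ± 0.19, adjusted p = 1e-08). *NUCB2* (1.24 ± 0.12), a calcium-binding protein of the secretory pathway, *SSR1* (0.97 ± 0.10), a subunit of the translocon-associated protein complex, and *TMEM50B* (1.74 ± 0.19) also stood in the first 15. *DEFB1*, *NUCB2* and *SSR1* fell with bortezomib alone and rose with bortezomib in the presence of ISRIB, both past the test.

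Of 20 plasma protein genes, bortezomib lowered 11 and raised 2 without ISRIB, and lowered 12 and raised 2 with it, where 53.4% and 54.7% of all genes were called. In the interaction 2 lay above additivity, beside 2.93% of all genes, and 0 below, with a median of 0.0625. The count above was 4 with DESeq2, with no filter, with the 16 libraries alone or without replicate 3 of bortezomib with ISRIB. *AFP* had 0.58 (adjusted p = 0.0727), and 0.70 (adjusted p = 0.00868) without that replicate. *APOH*, an apolipoprotein, went from 1496 to 1719 CPM in DMSO to 632 to 712 CPM with bortezomib and was at 900 to 1080 CPM with both (0.74 ± 0.12, adjusted p = 0.000149). *TTR*, the thyroid hormone carrier, went from 108 to 133 CPM to 38 to 50.8 CPM and was at 65.9 to 81 CPM with both (0.71 ± 0.16, adjusted p = 0.00574). In bulk RNA a change in some of the cells cannot be told apart from a smaller change in all of them. *HNF4A*, the hepatocyte transcription factor, lay below additivity (-0.60 ± 0.16, adjusted p = 0.0192), and its call was lost without replicate 1 of bortezomib (0.052) or replicate 1 of bortezomib with ISRIB (0.0608).

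The next lists held 1 or 2 calls each, which was 7.69% to 20% of their tested members. Over all genes 4.82% were called, with 2.93% above additivity and 1.89% below. Of 18 immediate early genes, *IER3* (0.72) and *KLF6* (0.55) lay above additivity, but lost the call with 11 and 13 of the 16 libraries left out and when scaled by library totals alone. *IER3* also lost it with edgeR's robust estimate of the spread. *KLF6* also lost it with the median-of-ratios factors of DESeq2 and with the mitochondrially encoded genes left out. The mean log2 level of this list was 1.13, 1.09, 0.743 and 1.27 with both compounds and 0.823 to 1.02 with bortezomib. Of 5 metallothioneins, which are close copies of one another, only *MT2A* was called above additivity (1.03 ± 0.17, adjusted p = 0.000194). It was at 215 to 296 CPM with both compounds against 108 to 154 CPM with bortezomib. All 5 had an interaction over 0, from 0.61 to 1.67, with a median of 1.01, while 6455 of the 12685 genes tested were over 0. In the presence of bortezomib, ISRIB raised 3 of the 5 metallothioneins past the test, beside 6.91% of all genes. Of 13 NRF2 targets, *FTH1* lay below (-0.49, adjusted p = 0.0184, and 0.0531 without replicate 1 of DMSO). Of 12 p53 targets, *MDM2* (-0.47, adjusted p = 0.0139) and *TNFRSF10B* (-0.46, adjusted p = 0.0485) lay below. The call of *TNFRSF10B* was lost with 13 of 16 libraries left out and with no filter on low counts. Of 13 mitochondrially encoded genes only *MT-ND5* was called (0.52, adjusted p = 0.0443), which was lost with 9 of the 16 libraries left out. Its call was also lost under library totals alone, with the median-of-ratios factors of DESeq2 and with only the 16 libraries fitted.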

How the data were processed

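The deposited values are read counts per gene that the authors made from 3′ mRNA (QuantSeq) libraries of 80-base single-end reads, not normalised, on hg19. The submitters' processing notes name cutadapt 2.8 and STAR. The study's methods name the nf-core RNA-Seq workflow and Ensembl gene models of GRCh37. No source used here states the strand setting of the counting step, and reads of overlapping antisense genes may therefore be mixed. Groups came from the sample labels, which number the replicates. The study's methods call them biological replicates without naming separate cultures, so p-values measure the spread between these samples.

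Genes were kept by filterByExpr with a minimum count of 5 and a minimum total of 25 and scaled by TMM factors. All 24 libraries were fitted with 1 coefficient per condition by edgeR 4.0.16 (glmQLFit, glmQLFTest; R 4.3.3), with Benjamini-Hochberg adjustment over all genes and a threshold of 0.05. All adjusted p-values are from this fit unless another is named. SE is the absolute log2 change divided by the square root of F. DESeq2 1.42.0 and other scalings, filters and sample sets were alternatives. Scripts were tested on simulated data. The comparison, the gene lists and the rule for named genes (the 15 of smallest p per direction and list members) were chosen with earlier results of these data known. Each list is given by counts over all its tested members, and the members described singly were picked with their values known. Promoters were matched by symbol in RefSeq. Some list members are counted in their lists but not reported here by name.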

Additional observations from a re-analysis of the deposited data

Results flagged for a closer look

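The ISRIB effect differed between cells with and without bortezomib for 612 genes by the interaction test, with 372 higher and 240 lower.

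Over the named genes and the libraries' total counts, mitochondrial share and number of genes detected, 25 of 452 groups of 4 libraries (5.53%) held a library whose gap to its nearest neighbour exceeded Dixon's 95% critical share of the group's range, where chance gives about 1 in 20. Replicate 3 of bortezomib with ISRIB was such a library for 3 genes, as the lowest for *HERPUD1* (175 CPM), *CEBPB* (50.1 CPM) and *PPIB* (83.6 CPM). In the same group, replicate 4 had 265 CPM for *PSMD14* and replicate 2 had 263 CPM for *GARS*.

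Replicate 3 of ISRIB stood apart for 5 genes, at 499 CPM for *TM4SF1*, 87.3 CPM for *DGAT2*, 18.4 CPM for *DDIT4*, 4.38 CPM for *ITPR1* and 127 CPM for *HNF4A*. Replicate 4 of ISRIB had 187 CPM for *PSMB5*, and replicate 2 had 98.4 CPM for *SEC31A*.

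Replicate 4 of bortezomib stood apart for 5 genes, at 154 CPM for *DNAJB11*, 525 CPM for *TM4SF1*, 1268 CPM for *DHRS2*, 41.7 CPM for *ERN1* and 478 CPM for *ADRM1*. The other bortezomib libraries were replicate 3 for *HERPUD1* (84.7 CPM), replicate 2 for *MTHFD2* (279 CPM) and *SREBF2* (52 CPM), and replicate 1 for *DARS* (149 CPM). In DMSO, replicate 3 stood apart for *HYOU1* (139 CPM) and *DERL1* (48.3 CPM), and replicate 2 for *SLC7A11* (35.8 CPM) and *INHBE* (53.9 CPM).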

How the results depend on the processing

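Of 84 named genes called in the interaction, 74 stayed called under all 11 alternatives of scaling, filter, tool and sample set, and 68 also with any of the 16 libraries left out. Library totals alone, which give no weight to composition, called 1490 genes higher and 6266 lower with bortezomib without ISRIB, and 1532 and 6397 with ISRIB. They moved the median bortezomib effect to -0.495 and -0.515. DESeq2 called 923 genes in the interaction, 436 of them lower, and 1 higher and 20 lower for ISRIB alone. With no filter on low counts, ISRIB alone gave 5 higher and 34 lower. On the linear scale *SLC7A11* reversed to -53.1 CPM. The causes were not tested.

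Leaving out 1 library gave 273 (without ISRIB replicate 1) to 405 genes higher in the interaction and 163 (without DMSO replicate 1) to 293 lower, both highest without replicate 3 of bortezomib with ISRIB. It gave 710 to 878 and 554 to 678 for ISRIB with bortezomib, 3021 to 3492 and 3046 to 3658 for bortezomib without ISRIB, 3223 to 3659 and 3012 to 3549 for bortezomib with ISRIB, 0 for ISRIB alone, and 0.652 to 3.17 points for the mitochondrial share. Uncalled genes near 0 changed sign, with ranges of -0.188 to 0.0056 for *ATF6*, -0.164 to 0.0263 for *DDIT3* (and 0.00805), -0.60 to 0.0847 for *CTH*, and -0.0691 to 0.189 for *SREBF2* (and -0.0229).

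Same-numbered replicates did not deviate together (1 of 24 pairs had r over 0.1), so the numbers were not taken as a pairing. With the replicate number as a block, 692 genes were called in the interaction, 601 of them among the 612, and with ISRIB libraries numbered by the other label 670 were called, and 9 fell with ISRIB alone. Among named genes the block changed no call except that of *DARS* (adjusted p = 0.0519). *PMAIP1* stayed at or under 14.1 CPM with an SE of 0.49, so a departure of moderate size was not detectable there.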

Other observations

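The lists that follow were chosen after the values had been seen and are descriptions. The ER translocon, signal peptidase and oligosaccharyltransferase bring new proteins into the ER and glycosylate them. Of 25 of their genes, 10 lay above additivity, beside 2.93% of all genes, and 0 below, with a median interaction of 0.418. The mean log2 level of the list relative to DMSO was -0.109 to 0.108 with bortezomib and 0.369, 0.43, 0.181 and 0.548 with both compounds, with replicate 3 the lowest. *SPCS3*, a signal peptidase subunit, was at 86.5 to 98.9 CPM in DMSO, 56.8 to 77.4 CPM with bortezomib and 120 to 135 CPM with both compounds (0.94 ± 0.13, adjusted p = 6.94e-06). *SSR3*, of the translocon-associated complex, had 0.71 ± 0.11 and *MAGT1*, an oligosaccharyltransferase subunit, 1.05 ± 0.15. Of 19 genes of the COPII coat and ER export, 3 lay above, beside 2.93% of all genes, and 0 below, with a median of 0.29. They were *SEC24D* (1.03), *SEC31A* (0.86) and *TMED10* (0.43). *TMED10* lost its call with 9 of 16 libraries left out, under library totals alone and with no filter on low counts.

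Host genes of small nucleolar RNAs, whose mRNA-like transcripts are known to be degraded during translation, lay the other way. Of 8 tested, 4 lay below additivity, beside 1.89% of all genes, and 0 above, with a median of -0.687. *ZFAS1* was at 194 to 256 CPM in DMSO, 214 to 254 CPM with ISRIB, 866, 947, 983 and 1030 CPM with bortezomib and 470, 404, 304 and 506 CPM with both (-1.21 ± 0.20, adjusted p = 0.000216). *C6orf48* (-1.18), *EPB41L4A-AS1* (-1.10) and *SNHG8* (-0.94) passed too. They were among the 15 genes of smallest p below additivity, so the count of this list partly restates that ranking. *ZFAS1* and *EPB41L4A-AS1* are antisense to other genes and the strand setting is not known. Of 77 cytosolic ribosomal protein genes, many of which have processed pseudogenes, 5 lay below additivity and 0 above, with a median of -0.188. The share below was 6.49%, beside 1.89% of all genes. Of the 77, 12 had an interaction over 0, as did 6455 of the 12685 genes tested. The count of 5 was 6 to 15 over the 11 alternatives and 1 without replicate 1 or 2 of DMSO, replicate 1 of ISRIB or replicate 4 of bortezomib.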
